A study of Mus musculus with 15 samples.

Results

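RNA from mouse embryonic stem cells (ESCs) depleted of TET2 was compared with RNA from ESCs carrying a control hairpin. The comparison rests on 10 of the 15 libraries of the series, 5 labelled shTet2 and 5 labelled shScr, taken by their labels and not by any measured value. All came from the E14 line (129/Ola strain), kept without feeder cells in serum with LIF. Every culture was infected with a pLKO.1 lentivirus that carried 1 hairpin and was collected after 3 days of puromycin, so the shScr cells carried a vector and had been through the selection as well. The other 5 libraries, labelled shTet1, were made in the same way with a hairpin against Tet1. They serve here for a direct contrast of the depletions, and also enter the choice of tested features and the spread used by the tests. With a single hairpin against Tet2, loss of TET2 and any other effect of that hairpin cannot be told apart. The labels do not say whether replicates were separate cultures, and they name 2 RNA extraction methods without tying either to a library, so p-values measure the spread between these libraries, which may be technical.

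TET enzymes oxidise 5-methylcytosine in DNA to 5-hydroxymethylcytosine and further products, a route by which methylation is removed from promoters, enhancers and repeats. ESCs express mainly TET1 and TET2. TET1 carries a CXXC domain that binds CpG-rich DNA, which TET2 lacks. ESC cultures are also mixtures: a few cells at a time switch on genes of the 2-cell embryo together with the retrovirus MERVL, and others turn towards primitive endoderm, the extraembryonic layer that lines the yolk sac. In bulk RNA, fewer cells of such a kind and less RNA per cell cannot be told apart.

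The values are the variance-stabilised, log2-like values deposited by the authors, for 26061 genes and 1217 repeat classes. A gene with no read sits at 4.25 and a repeat class with no read at 2.39. Differences near that floor are therefore compressed, and the level of a gene is also given below as a percentage of the shScr level, computed from the normalised reads recovered from these values. Gene reads numbered 18580994 to 22404933 in the shScr libraries and 15258291 to 35432425 in the shTet2 libraries. The 10 ESC markers together took 4240 to 4457 RPM (reads scaled to the gene reads of the library) in shScr and 3842 to 4326 in shTet2. The 10 fibroblast markers took 11.5 to 20.7 and 18.02 to 24.5 RPM, with 1 of them at 0 in all 10 libraries, and 5 trophoblast markers took 2.43 to 5.54 and 2.46 to 6.03. Reads over olfactory and vomeronasal receptor genes, which ESCs should hardly transcribe, had a median of 15.8 RPM in shScr and 19.14 in shTet2, and replicate 4 stood apart in both groups at 61.5 and 64.7. The part of these reads in the results was not tested, but counts without replicate 4 are given. Replicates 1 and 2 also stood apart from replicates 3 to 5 in all groups on the first principal component of the genes, though not of the repeat classes, where the sets overlapped. Differences within these sets are given for lists and for a number of genes.

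Tet2 itself was read first, as a check of the labels. Its values were 13.15, 13.24, 13.26, 13.52 and 13.45 in shScr replicates 1 to 5, and 11.32, 11.12, 11.61, 11.48 and 11.59 in shTet2. The groups stood far apart, with the shTet2 libraries at 26.6% of the shScr level (difference −1.90 ± 0.13, SE, n = 5 per group, limma adjusted p = 3.67e-07). Tet1 (−0.18) and Tet3 (−0.13) did not pass the test.

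Across 19490 tested genes, 76 differed between shTet2 and shScr at an adjusted p under 0.05 (0.390% of genes, limma with Benjamini-Hochberg adjustment). Of these, 43 were higher (0.221%) and 33 lower (0.169%) on TET2 depletion. This split depends on scaling. Centring each library on its own median lowered every difference by 0.11 and left 39 genes (0.200%), of which 5 were higher (0.0257%) and 34 lower (0.174%). The 2 scalings shared 36 genes, 31 of them lower. Crxos1, Ccdc141 and Greb1l were among the higher genes called in both. The count moved with single libraries. Leaving out 1 control at a time gave 14, 21, 28, 58 and 20 for replicates 1 to 5. Leaving out 1 depleted library gave 13, 10, 60, 33 and 78 in the same order. The count was 24 when both replicate 4 libraries were dropped. After centring, the like counts were 27, 16, 25, 44 and 28 for the controls. For the depleted libraries they were 16, 15, 58, 43 and 65. In both scalings 10 genes were called whichever single library was left out. They were Tet2, Inhbb, l7Rn6, Ormdl2, Osbpl8, B3galnt1, Adprh and Necap1, all lower, and Crxos1 and Ccdc141, both higher. Adprh and Necap1 are named here after their values were seen.

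The direction of the difference went with expression level. With the genes ranked by mean value and cut into 4 equal bins, in the lowest bin the median difference was +0.11 as deposited, in the second +0.14, in the third +0.01 and in the highest −0.08. The share of genes higher in shTet2 fell along the same order, from 72.6% through 71.1% and 52.1% to 31.6%. The called genes were spread likewise, with 9 higher and 0 lower in the lowest bin, 22 and 2 in the second, 10 and 14 in the third, and 2 and 17 in the highest. After centring, the 4 medians were 0.00, +0.03, −0.10 and −0.18. Library medians over all tested genes were 7.27 to 7.45 in shScr and 7.38 to 7.53 in shTet2, but over genes whose mean stood at least 2 units above the floor the ranges were 9.21 to 9.26 and 9.21 to 9.25. Differences that follow level in this way recurred in each replicate set, with medians of +0.14, +0.17, +0.01 and −0.12 in replicates 1 and 2 and of +0.10, +0.12, +0.01 and −0.05 in replicates 3 to 5.

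**Figure D1:**
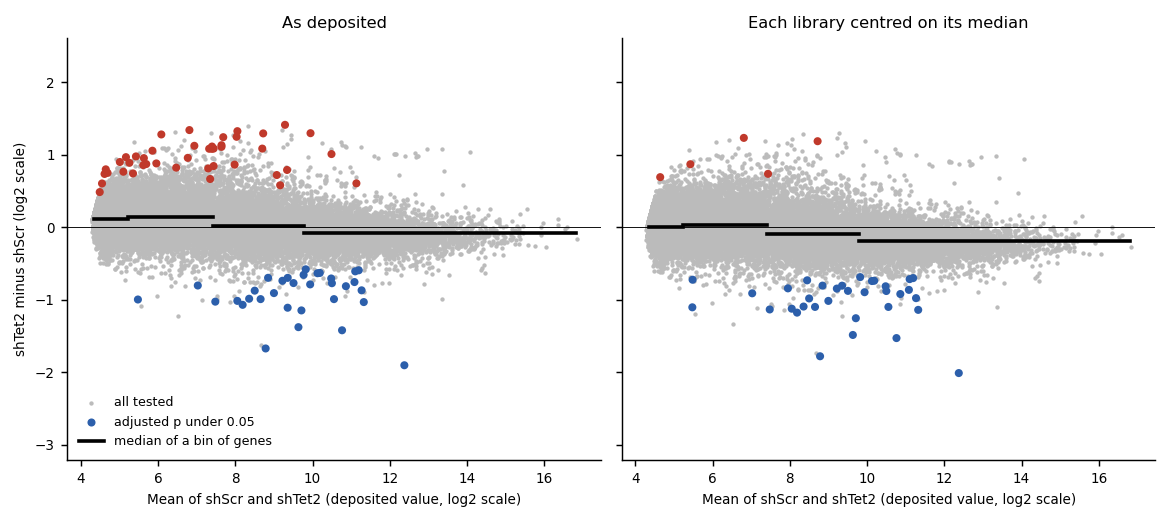
Difference between shTet2 and shScr (log2-like units, vertical axis) against mean value over the libraries (horizontal axis), 1 point per tested gene, as deposited on the left and after centring on the right. Red and blue points are genes higher and lower at an adjusted p under 0.05, and black bars are the medians of the 4 bins of level, which run from +0.11 to −0.08 as deposited and from 0.00 to −0.18 after centring.

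Among the genes that fell, Inhbb was the one with the largest difference after Tet2 by the rule for named genes. It encodes the beta B subunit of activins, ligands of the TGF-beta family. Its values were 9.75, 9.09, 9.97, 8.99 and 10.28 in shScr and 7.85, 7.58, 8.31, 7.53 and 8.48 in shTet2, with no overlap. The level was 27.6% of shScr (−1.67 ± 0.25, SE, adjusted p = 0.00655, limma). The l7Rn6 gene, which encodes the carrier that takes heat shock protein 70 into the nucleus, read 11.41, 11.46, 11.61, 11.22 and 11.65 against 9.95, 9.80, 9.99, 10.07 and 10.46. All shTet2 libraries lay below all shScr libraries, at 36.8% of the shScr level. Ormdl2, a regulator of sphingolipid synthesis in the endoplasmic reticulum, read 10.09, 10.21, 10.63, 10.18 and 10.49 against 8.91, 8.69, 8.95, 8.88 and 9.29. It too was below in all libraries, at 36.7%. Exons of Dnajc14 cover 75.9% of the exonic bases of Ormdl2 on the other strand, and whether counting used strand is not given in the sources used here. Dnajc14 itself differed by −0.24 and did not pass the test (adjusted p = 0.544, limma).

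Osbpl8, a lipid transfer protein of the endoplasmic reticulum, went from 10.95, 11.17, 10.94, 11.32 and 10.86 to 9.92, 9.89, 9.96, 10.23 and 10.29. B3galnt1, the enzyme that makes globoside, went from 8.65, 8.96, 9.20, 8.52 and 8.92 to 7.83, 8.24, 7.45, 7.83 and 7.97. Both therefore ended at close to the same share of the shScr level, 49.4% and 46.5%, and neither lost its call with any library left out. Slc25a15, the mitochondrial ornithine carrier, was at 44.0% of shScr, and Acot7, an acyl-CoA thioesterase, at 42.7%. Rpe, an epimerase of the pentose phosphate pathway, was at 48.1%, although 18.1% of its exonic bases lie opposite another gene. Each of these 3 lost its call in 2 of the 10 fits that left out a library as deposited. After centring, Slc25a15 lost it in 5, Acot7 in 0 and Rpe in 3. Ntn1, a secreted guidance protein, read 9.42, 9.27, 8.83, 8.71 and 9.51 in shScr and 7.94, 7.87, 8.35, 8.03 and 8.60 in shTet2, and lost its call in 6 of 10. It differed by −1.44 within replicates 1 and 2 and by −0.69 within replicates 3 to 5.

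The remaining lower genes under the naming rule were less secure as deposited. Pgap1, which remodels glycosylphosphatidylinositol anchors, was at 50.8% of shScr, Reps2, an endocytic adaptor, at 41.5%, Rasa3, a GTPase-activating protein for Ras, at 45.9% and Adap1, a GTPase-activating protein for Arf6, at 46.3%. Their calls were lost in 8 or 9 of 10 fits as deposited. After centring, Reps2 and Rasa3 each lost theirs in 2 of 10 and Pgap1 in 6. Adap1 was also no longer called after centring (adjusted p = 0.0506, limma), whereas the other 13 lower genes under the rule were. In the other direction, C1galt1 (55.2% of shScr), the synthase of core 1 O-glycans, and Lrrc68 (60.7%) and the potassium channel Kcna7 (33.9%, from very few reads) were called only after centring. All 17 of these genes, Tet2 included, were lower in every shTet2 library than in every shScr library. For the 14 lower genes under the rule this was a condition of being named, so it is not a result. C1galt1, Lrrc68 and Kcna7 were not chosen on it. Over all tested genes the share was 0.949%.

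**Figure D2:**
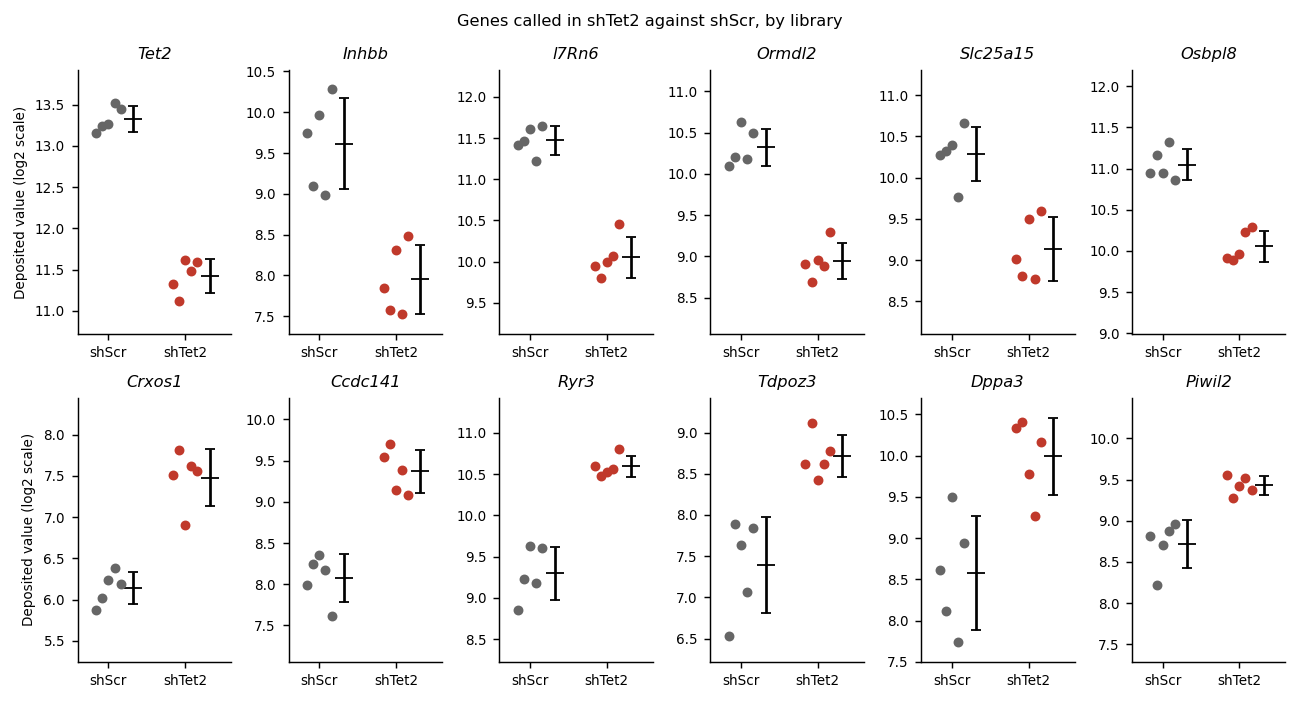
Deposited value (log2-like units, vertical axis) of 12 genes in each shScr and shTet2 library, with 1 dot per library and the mean ± SD of 5. The groups do not overlap in 11 of the 12 panels, whose genes were named by a rule that required this. In Dppa3, added as a called list member, the shTet2 range of 9.27 to 10.41 overlaps the shScr range of 7.74 to 9.50.

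The genes that rose sat lower on the scale. Crxos1, a homeobox gene of the early embryo, read 5.87, 6.02, 6.24, 6.38 and 6.19 in shScr and 7.51, 7.81, 6.90, 7.62 and 7.56 in shTet2. No library overlapped, which the rule for named genes required and which held for 1.75% of all genes with shTet2 on top. The level was 382% of shScr (+1.34 ± 0.20, SE, adjusted p = 0.00655, limma). Ccdc141, a coiled-coil protein studied in migrating neurons, read 7.99, 8.24, 8.36, 8.17 and 7.62 against 9.54, 9.70, 9.14, 9.38 and 9.08, or 266% of shScr. Ryr3, a ryanodine receptor that releases calcium from internal stores, read 8.85, 9.23, 9.63, 9.18 and 9.60 against 10.60, 10.48, 10.53, 10.56 and 10.80. The shTet2 libraries were tight and all above the controls, at 250% of the shScr level, but the call was lost in each of the 10 fits with a library left out and after centring. Greb1l, a relative of an oestrogen-responsive gene, was at 207%, was also called after centring, and lost its call in 1 fit of 10 as deposited and in 8 of 10 after centring. Prkch, a protein kinase C isoform, was at 199.7%, lost it in 4 as deposited and was not called after centring (adjusted p = 0.0708, limma).

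Further genes in this direction were Fstl5, a secreted follistatin-like protein, at 495% of shScr, Myo3b, a class III myosin, at 396%, and Krt19, an epithelial keratin, at 299.5%. Arntl2, a partner of the circadian factor CLOCK, was at 262%, Hpcal4, a neuronal calcium sensor, at 234%, Kctd12b at 200.5% and Nmnat2, an enzyme of NAD synthesis in axons, at 179.7%. The shScr means of Fstl5 and Myo3b lay within 2 units of the floor, while Nmnat2 was the highest of them, at 8.94. Myo3b differed by +1.53 within replicates 1 and 2 and by +0.74 within replicates 3 to 5. None of these 7 was called after centring, and each lost its call in 6 to 10 of the 10 fits. A cluster on chromosome 10 held 8 of the called genes, named after their values were seen. In 6 of them (Gm4301, Gm4302, Gm4303, Gm4305, Gm4307 and Gm4308) 99.5% to 100% of 50-base words recur in other genes, in Gm8701 53.1% and in Gm4781 23.6%, so their reads could be split between copies in counting and they are not 8 separate observations. Another 4 of the 43 higher genes had no read in any shScr library, and no fold is given for them.

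Dppa3 and Piwil2, both genes of the germline held down by promoter methylation in somatic cells, were called higher. Dppa3 protects methylation in the egg and zygote, and read 8.61, 8.11, 9.50, 7.74 and 8.94 in shScr and 10.33, 10.41, 9.78, 9.27 and 10.16 in shTet2. The groups overlapped, since shTet2 replicate 4 lay under shScr replicate 3. The level was 267% of shScr, and the call was lost in 8 of 10 fits. The difference was +2.01 within replicates 1 and 2 and +1.01 within replicates 3 to 5. Piwil2, which binds piRNAs in germ cells, read 8.82, 8.22, 8.71, 8.87 and 8.96 against 9.56, 9.28, 9.42, 9.52 and 9.37, a rise to 168% with no overlap that lost its call in 9 of 10. Both missed the threshold after centring. Of the 25 genes in the list of methylation-controlled germline genes, 19 were higher (median +0.18, all genes +0.04), with 7 higher and 1 lower at an unadjusted p under 0.05, against 8.00% and 3.58% of all genes. Brdt, a testis bromodomain protein, differed by +0.74 and Tex19.1, a germ cell retrotransposon regulator, by −0.57, and neither passed the adjusted test.

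Since TET enzymes act on CpG methylation, the 250 bases upstream of each gene start in mm9 were scanned for the motif CG, which reads the same on both strands. The called genes differed in this by direction. Of the 43 higher genes 11 (25.6%) held at least 10 CpGs, with a median of 4, and of the 32 lower genes with a promoter 27 (84.4%), with a median of 16. Over all 19268 promoters the share was 55.8% and the median 11. The share also rose with level, from 28.1% in the lowest bin through 50.1% and 68.4% to 76.7% in the highest, and the higher and lower genes had median levels of 6.90 and 9.90. The 43 higher genes include the chromosome 10 cluster of shared sequence, whose members are not separate observations. After centring, 5 of the higher and 31 of the lower genes were still called. These windows carry no methylation measurement here. As examples of either kind, the upstream sequences of a pair of lower genes (Inhbb at chr1:121318826-121319075, minus strand, and Osbpl8 at chr10:110601608-110601857, plus strand) and a pair of higher genes (Crxos1 at chr7:16467716-16467965 and Dppa3 at chr6:122576178-122576427, both plus strand) are printed 5′ to 3′, with each CG in capitals.
Inhbb: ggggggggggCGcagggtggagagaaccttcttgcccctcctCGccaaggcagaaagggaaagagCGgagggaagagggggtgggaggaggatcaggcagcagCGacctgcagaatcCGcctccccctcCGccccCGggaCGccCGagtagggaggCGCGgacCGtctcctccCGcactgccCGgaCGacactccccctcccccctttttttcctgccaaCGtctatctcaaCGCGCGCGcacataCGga
Osbpl8: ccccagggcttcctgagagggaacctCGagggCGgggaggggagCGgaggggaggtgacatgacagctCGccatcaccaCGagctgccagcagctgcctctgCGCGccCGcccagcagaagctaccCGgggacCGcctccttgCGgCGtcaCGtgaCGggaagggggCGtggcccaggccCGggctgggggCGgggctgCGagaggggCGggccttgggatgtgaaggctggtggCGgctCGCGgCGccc
Crxos1: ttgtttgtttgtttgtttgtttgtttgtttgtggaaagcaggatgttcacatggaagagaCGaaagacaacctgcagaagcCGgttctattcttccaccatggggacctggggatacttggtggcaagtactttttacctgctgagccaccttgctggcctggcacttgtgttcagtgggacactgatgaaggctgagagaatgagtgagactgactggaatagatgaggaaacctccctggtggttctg
Dppa3: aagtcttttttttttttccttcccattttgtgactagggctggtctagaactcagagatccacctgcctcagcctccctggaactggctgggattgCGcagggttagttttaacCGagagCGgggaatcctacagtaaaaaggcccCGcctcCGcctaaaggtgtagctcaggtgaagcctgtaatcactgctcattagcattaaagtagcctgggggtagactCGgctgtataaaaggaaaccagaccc
The lower genes held 21 and 23 CpGs in their windows and the higher genes 2 and 6.

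Genes of the 2-cell-like state formed the list with the largest median. Of the 21 tested, 20 were higher in shTet2 and 17 of them at an unadjusted p under 0.05, where 8.00% of all genes stood. The median difference was +0.97 as deposited and +0.87 after centring, where 16 were higher at an unadjusted p under 0.05 (all genes, 4.21% higher and 7.18% lower). Tdpoz3, a BTB protein of the early embryo, read 6.53, 7.89, 7.63, 7.07 and 7.84 in shScr and 8.62, 9.11, 8.43, 8.62 and 8.78 in shTet2. Gm13119 read 7.80, 7.79, 8.56, 8.46 and 8.16 against 9.30, 9.48, 8.94, 9.62 and 8.86, a difference of +1.59 within replicates 1 and 2 and of +0.74 within replicates 3 to 5. These 2 passed the adjusted test as deposited, and neither did after centring. Dub1a, a deubiquitinase (+1.21), was called when the replicate set was a term, a fit that called 266 genes in all. The Zscan4 genes, which lengthen telomeres in this state, differed by +0.95 to +0.98. Members share sequence and are not separate observations: 40% of the 50-base words of Gm13119 recur in other genes, 47.3% to 91.6% of those of the Zscan4 genes, 67.9% of Gm5662, 98.1% of Gm4340 and 100% of Tdpoz5. Zfp809, a silencer of proviral DNA, was the member that was lower (−0.17).

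The size of the difference in these genes varied between the replicate sets. The list median was +1.33 within replicates 1 and 2 and +0.68 within replicates 3 to 5. Zscan4d read 11.60, 11.64, 12.26, 11.71 and 12.23 in shScr and 13.05, 13.34, 12.48, 12.80 and 12.68 in shTet2, with replicate 3 the lowest of the latter. Sp110 read 7.52, 7.83, 6.35, 6.42 and 6.48 against 8.98, 9.22, 7.07, 7.25 and 6.84, so its control libraries of replicates 1 and 2 lay above the shTet2 libraries of replicates 3 to 5. In the test of the interaction between hairpin and set, 0 of 19490 genes passed the adjusted threshold (limma). An unadjusted p under 0.05 was reached by 1043, close to the share that this threshold alone lets through. A panel of 4 markers of this state took 322 to 467 RPM in shScr and 593 to 1157 in shTet2. These markers are themselves members of the list, so the panel is not a separate observation.

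**Figure D3:**
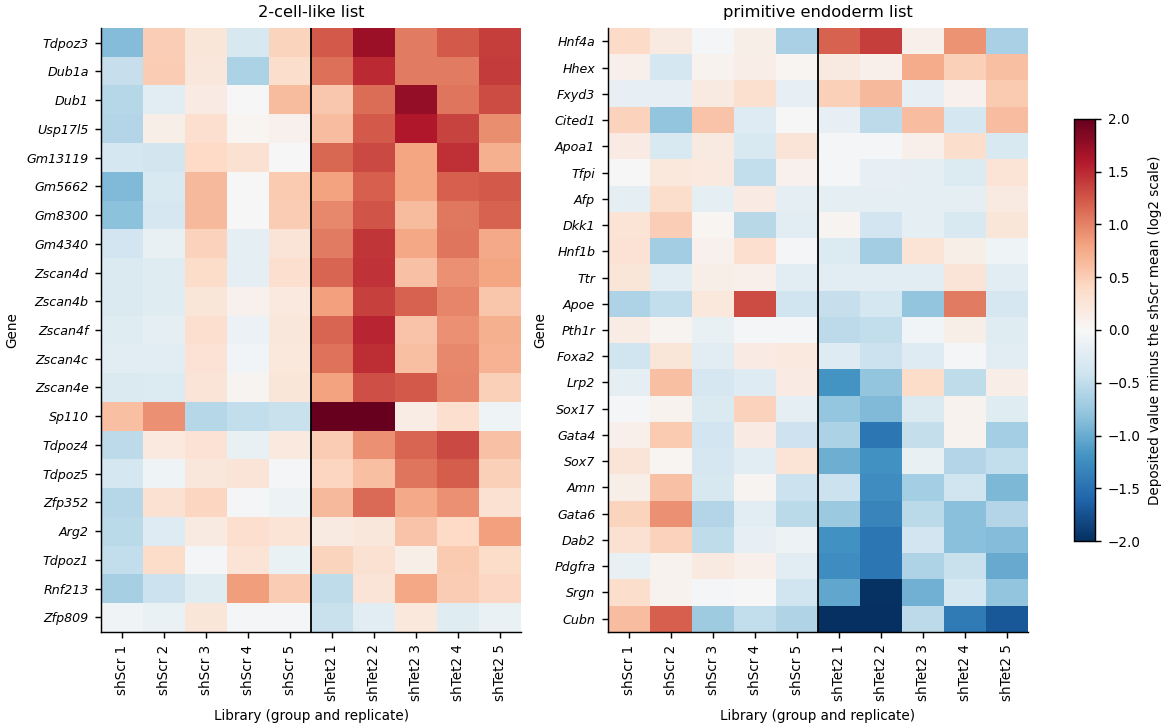
Deposited value minus the shScr mean of the gene (log2-like units, colour, capped at ±2) for each tested gene of the 2-cell-like and primitive endoderm lists (vertical) in each library (horizontal). In the 2-cell-like panel 20 of 21 genes had a higher mean in shTet2, and in the endoderm panel 18 of 23 had a lower one.

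Primitive endoderm genes moved the other way without passing the adjusted test. Of 23 tested, 18 were lower, 8 of them at an unadjusted p under 0.05, where 3.58% of all genes stood. The median was −0.23 as deposited and −0.34 after centring (all genes, +0.04 and −0.07). Cubn, the endocytic receptor of the visceral endoderm, read 10.10, 10.67, 8.77, 8.98 and 8.88 in shScr and 7.48, 6.97, 8.95, 8.07 and 7.79 in shTet2. Its difference was −3.16 within replicates 1 and 2 and −0.60 within replicates 3 to 5. Gata6, a factor that starts endoderm differentiation, read 7.17, 7.65, 6.14, 6.50 and 6.19 against 5.98, 5.41, 6.19, 5.89 and 6.15, with the high controls in replicates 1 and 2. Pdgfra, a receptor of this lineage, was below in all shTet2 libraries (8.31, 8.53, 8.64, 8.56 and 8.23 against 7.21, 7.01, 7.83, 8.01 and 7.45), and its adjusted p was 0.0535 (limma). The list median was −0.54 within replicates 1 and 2 and −0.07 within replicates 3 to 5. The other 5 members were higher. Of these, Hhex had an unadjusted p under 0.05 (+0.42), and Hnf4a rose by more (+0.58) without reaching it. The 8 defining markers, Hnf4a among them, together took 28.3 to 45.2 RPM in shScr and 16.5 to 29.8 in shTet2. The collagen IV genes Col4a1 and Col4a2, which endoderm secretes into basement membrane, differed by −0.65 each and did not pass the adjusted test. Col4a2 was at −1.65 within replicates 1 and 2 and +0.02 within replicates 3 to 5, and Col4a1 at −1.37 and −0.16. The matrix list as a whole had a median of −0.04.

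In the pluripotency lists the naive and primed genes lay on opposite sides of 0. Of 14 primed epiblast genes 12 were higher (all genes, 56.8%), with a median of +0.26 as deposited and +0.16 after centring. Of these, 3 had an unadjusted p under 0.05 (all genes, 8.00%) and 0 passed the adjusted test. Otx2, a factor of the epiblast after implantation, read 9.97, 10.45, 9.50, 9.81 and 9.06 in shScr and 10.76, 10.82, 10.48, 10.41 and 9.91 in shTet2, which overlap. Sfrp2, a secreted Wnt antagonist, differed by +0.65. Of 19 naive genes 14 were lower (median −0.19 and −0.30), among them Nr0b1 (−0.49) and Nr5a2 (−0.43) at an unadjusted p under 0.05. The other 5 were higher, among them Dppa3, the called member, and Fbxo15 (+0.57, unadjusted only). The naive list had a median level of 11.09, in the highest bin. There 31.6% of all genes were higher, and the medians were −0.08 as deposited and −0.18 after centring. The naive median was −0.16 within replicates 1 and 2 and −0.08 within replicates 3 to 5. A shift from naive to primed genes is therefore not read from these lists. The 10 core pluripotency genes had a median of −0.02, with 4 higher and 6 lower.

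Signalling lists stayed near the median of all genes. Of 25 Nodal and activin genes Inhbb was the called one, 12 were higher and 13 lower, and the median was −0.0049. Medians were +0.11 for BMP, +0.10 for Wnt and +0.08 for FGF and ERK genes. Ccnd1, the cyclin that answers Wnt and growth factors, differed by −0.95, Fgfr1, an FGF receptor, by −0.77 and Dusp4, a phosphatase that damps ERK, by +0.81, all at an unadjusted p under 0.05 alone. In the p53 list the median was −0.05, with Trp53inp1, a p53 target in autophagy, at −0.99 and also short of the adjusted threshold.

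Metabolic lists had medians near that of all genes, also where they held a called gene. The 23 sphingolipid genes had a median of +0.0023 beside the fall in Ormdl2, with 12 higher and 11 lower. The 44 mitochondrial carriers of the Slc25 family had a median of +0.0033 and the 20 urea cycle and polyamine genes +0.02 beside the fall in Slc25a15. In the sterol and fatty acid list the median was +0.05. Glycolytic and hypoxia genes were higher in 21 of 26 as deposited (median +0.11) and in 13 of 26 after centring. Ddit4, an mTOR inhibitor induced by stress, differed by +1.01 (unadjusted only) in an amino acid stress list whose median was +0.01.

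Several lists of tissue-restricted genes lay above 0 as deposited, as did 56.8% of all genes. In the lowest and second bins of level 72.6% and 71.1% of all genes were higher, with medians of +0.11 and +0.14. After centring these medians were 0.00 and +0.03. The channel, glutamate and GABA receptor, and cytochrome P450 lists had median levels of 5.30, 5.06 and 4.95, within those bins. Their counts are therefore not read as results about these genes. Of 133 potassium and calcium channel genes 103 were higher (median +0.17), with 16 higher and 2 lower at an unadjusted p under 0.05 (all genes, 8.00% and 3.58%), and Ryr3 called. After centring 79 were higher (median +0.06). Of 25 actin and muscle genes 21 were higher (median +0.26 and, after centring, +0.15), of 40 glutamate and GABA receptor genes 29 (+0.13 and +0.02) and of 58 cytochrome P450 genes 45 (+0.09 and −0.02). Of 12 Prame-like genes, a clustered family of the germline and early embryo, 11 were higher (+0.29 and +0.19), 4 at an unadjusted p under 0.05 and 0 by the adjusted test. The olfactory and vomeronasal receptors, of which 105 of 1448 were tested, had a median of +0.02, below those of the other lists in this group. Outside it, Hox clusters (−0.04, 16 of 26 lower) and protocadherin clusters (−0.05, 10 of 14 lower) lay below 0 as deposited.

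Lists of highly expressed nuclear genes lay below 0. In the highest bin of level 31.6% of all genes were higher, with medians of −0.08 as deposited and −0.18 after centring. The histone, cell cycle, Polycomb and silencer lists had median levels of 11.42, 11.65, 10.56 and 12.11, all in that bin. Their counts are therefore not read apart from level. The 67 clustered histone genes had a median of −0.13 as deposited and −0.23 after centring, with 54 lower. Cell cycle and replication genes were at −0.14 and −0.25 (19 of 30 lower), Polycomb genes at −0.13 and −0.24 (18 of 25) and retroelement silencers at −0.14 and −0.25 (17 of 22). The 365 zinc finger genes named Zfp, many of which encode KRAB repressors, were at −0.06 and −0.16, with 221 lower. At an unadjusted p under 0.05, 14 of them were higher and 30 lower (all genes, 8.00% and 3.58%). Their median level was 8.46, in the third bin, where 52.1% of all genes were higher. No gene in these 5 lists passed the adjusted test. Cytosolic ribosomal protein genes (+0.01, 82 genes) and nuclear genes of the respiratory chain (−0.02, 84 genes) stayed near the middle. The medians of the other lists lay between −0.08 and +0.25 as deposited.

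**Figure D4:**
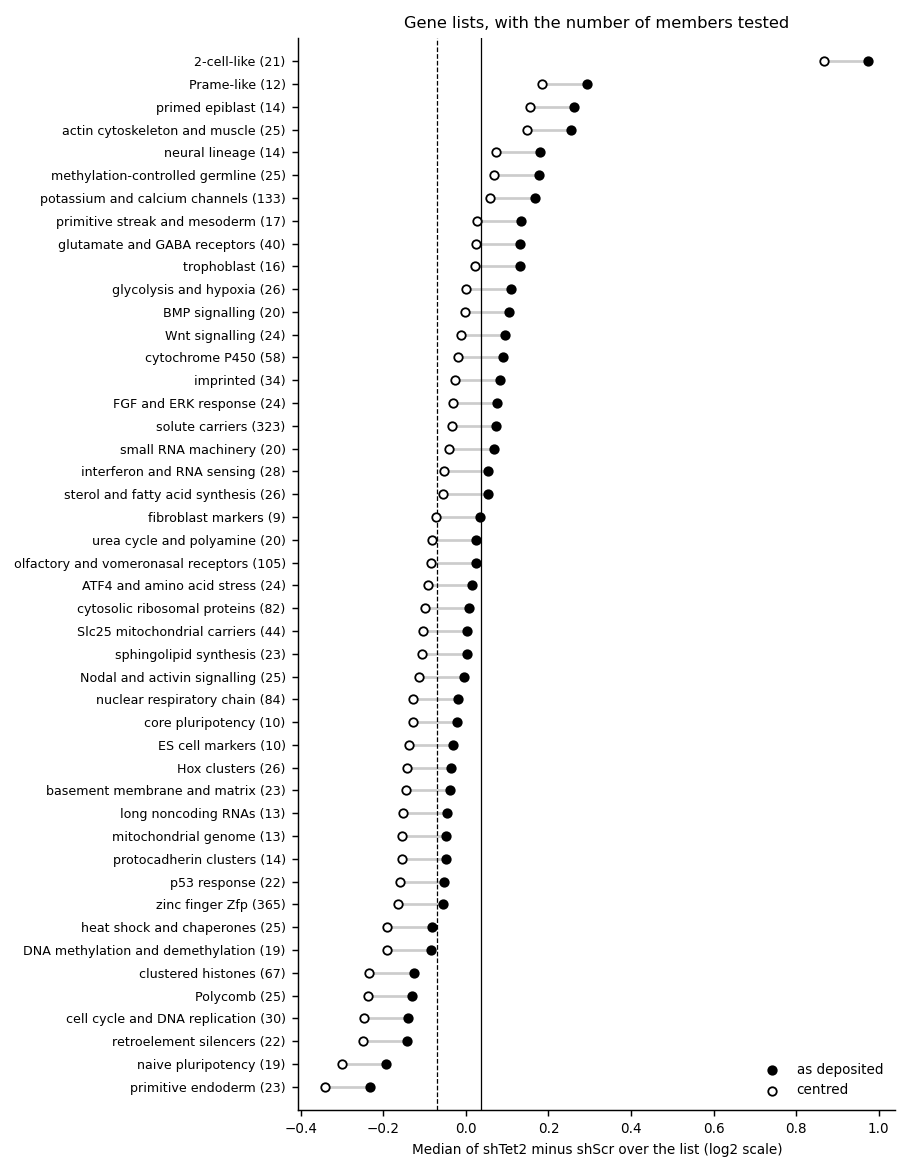
Median difference between shTet2 and shScr (log2-like units, horizontal axis) for each gene list with more than 1 tested member (vertical axis), as deposited (filled) and after centring (open), with solid and dashed lines at the medians of all genes, +0.04 and −0.07. The 2-cell-like list stands alone at +0.97, and the lowest deposited median is −0.23, for primitive endoderm.

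Gene families taken from shared symbols also differed by level. Of 225 stems with at least 10 tested genes, 138 had a median above 0 as deposited and 61 after centring, and none of the 10 described here held a called gene. The highest was Rgs, the regulators of G protein signalling, with 17 of 19 higher and a median of +0.43 (+0.32 after centring). Of its genes 8 were higher at an unadjusted p under 0.05, where 8.00% of all genes stood. Its median level of 6.09 lay in the second bin, where 71.1% of all genes were higher. Rgs17 differed by +1.09 (adjusted p = 0.0674, limma) and Rgs5 by +0.76. Kallikreins (Klk) were higher in 10 of 10 (+0.38), myosin heavy chains (Myh) in 11 of 14 (+0.35), axonemal dyneins (Dnahc) in 11 of 13 (+0.31) and the S100 and S1pr genes together in 12 of 16 (+0.30). At the other end were the tRNA methyltransferases (Trmt), lower in 8 of 10 (−0.24), the splicing factors Prpf, lower in 13 of 13 (−0.20), and Srsf, lower in 8 of 11 (−0.18). The Dnajc co-chaperones were lower in 23 of 28 (−0.15) and the nucleoporins (Nup) in 20 of 21 (−0.15). Median levels were 5.09 to 7.41 in the first 5 families and 9.03 to 12.69 in the last 5. Over all genes the share higher fell with level, from 72.6% in the lowest bin to 31.6% in the highest.

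Repeat classes gave no call. Of 1187 tested, 0 passed the adjusted threshold (0%, limma), while 10 were higher (0.842%) and 5 lower (0.421%) at an unadjusted p under 0.05. After centring the count was again 0, with 13 higher (1.10%) and 29 lower (2.44%) unadjusted. No alternative gave a called class. The small structural RNAs 4.5SRNA and U8 were the highest by difference under the unadjusted threshold (+1.11 and +0.86), followed by tRNA-Leu-TTA(m), U1 and tRNA-Pro-CCA (+0.81, +0.80 and +0.74). 4.5SRNA read 16.14, 15.52, 14.49, 15.37 and 14.18 in shScr and 16.40, 14.56, 17.54, 16.14 and 16.60 in shTet2, so the groups overlapped and shTet2 replicate 2 was among the lowest libraries. The lowest were (CCCGAA)n at −0.54, (GCTG)n at −0.44 and Charlie6 at −0.39, followed by the ETn retrovirus classes ETnERV-int at −0.36 and MMETn-int at −0.34. ETnERV-int was below in all shTet2 libraries, with values of 14.89, 15.22, 14.89, 14.88 and 14.89 against 14.56, 14.35, 14.64, 14.67 and 14.74, a separation found in 0.253% of classes. Its adjusted p was 1.0 (limma).

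MERVL, the retrovirus expressed with the 2-cell genes, was higher in both replicate sets. Its 6 tested classes were all higher, with a median of +0.43 over all libraries, +0.45 within replicates 1 and 2 and +0.42 within replicates 3 to 5. The internal class MERVL-int read 17.89, 18.77, 18.68, 18.46 and 18.39 in shScr and 18.89, 19.33, 19.20, 19.45 and 18.95 in shTet2. All shTet2 libraries lay above all shScr libraries, as in 0.253% of classes, but the control values themselves spread over a wider range than the difference (+0.73, 95% interval −0.08 to +1.53). Its LTR, MT2_Mm, also separated (+0.72). After centring, 4 of the 6 classes were higher (median +0.36) and the groups overlapped for both. MERVL-int then differed by +1.05 within replicates 1 and 2 and by +0.39 within replicates 3 to 5, and MT2_Mm by +1.18 and +0.29. As deposited, most other lists had opposite signs in the sets, as did the median of all classes, which was −0.31 within replicates 1 and 2 and +0.27 within replicates 3 to 5. Young L1 elements were at −0.77 and +0.07, IAP at −0.12 and +0.20, and structural RNAs at −0.15 and +0.83. ETn and MusD were lower in both, at −0.60 and −0.06. After centring, the median of all classes was −0.04 and −0.03 in the respective sets, and the young L1 classes were lower in both, L1Md_T by −0.51 and −0.24 and L1Md_Gf by −0.50 and −0.22. Over all libraries the list medians ran from −0.28 for ETn and MusD to +0.52 for structural RNAs.

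**Figure D5:**
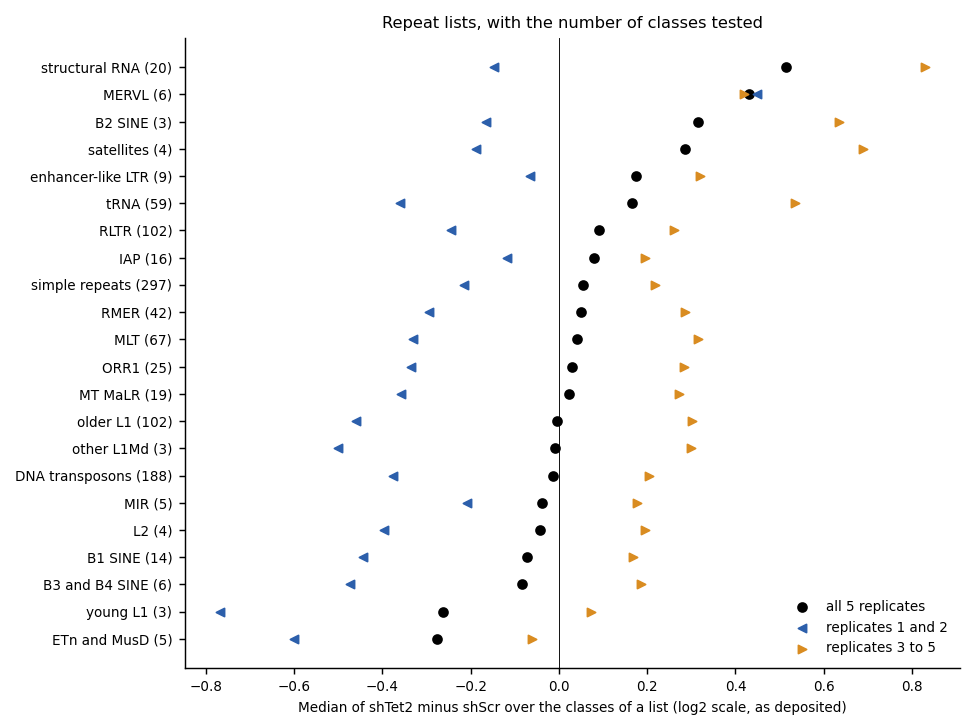
Median difference between shTet2 and shScr (log2-like units, horizontal axis) for each repeat list (vertical axis), over all 5 replicates, within replicates 1 and 2, and within replicates 3 to 5. MERVL is at +0.43, +0.45 and +0.42, whereas young L1 is at −0.26, −0.77 and +0.07.

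The shTet1 libraries give the level of the same genes when the other ESC enzyme is depleted. Against them, 827 genes differed in shTet2 (4.24%), 561 higher (2.88%) and 266 lower (1.36%). Inhbb had a shTet1 mean of 9.95, against 9.62 in shScr and 7.95 in shTet2, and Crxos1 one of 6.03 against 6.14 and 7.48. Both therefore differed from shTet1 by about as much as from shScr (−2.0, adjusted p = 0.000156, and +1.45, adjusted p = 0.000332, limma). Dppa3 did not: its shTet1 mean was 9.65, between the shScr mean of 8.58 and the shTet2 mean of 9.99, and it differed from shTet1 by +0.34 (adjusted p = 0.665, limma). For Ccdc141 the shTet1 mean lay between as well, with 8.76 in shTet1, 8.07 in shScr and 9.37 in shTet2. It was nevertheless called against shTet1 as deposited (+0.60, adjusted p = 0.0488, limma), and not after centring (adjusted p = 0.0657, limma). In the 2-cell-like list 19 of 21 genes were called higher in shTet2 than in shTet1, with a median difference of +2.17, and the shTet1 libraries were below shScr by a median of 1.02. Of 12 Prame-like genes 5 and of 25 germline genes 7 were called higher than in shTet1. The repeat classes called in this contrast numbered 3 (0.253%), among them MERVL-int (+2.15, adjusted p = 0.0145, limma). The shTet2 libraries are shared by both contrasts, so these are values side by side and not separate evidence.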

How the data were processed

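The series measured rRNA-depleted RNA of E14 ESCs by directional sequencing. Per the labels and methods, the authors trimmed reads with Trim Galore 0.3.3, aligned them to mm9 with TopHat2 2.0.9, counted reads over genes and repeat classes with SeqMonk and made variance-stabilised log2 values with DESeq2. These deposited log2 values were used, as deposited and after each library was centred on its median. Reads were recovered by inverting the transform (100% of values whole, tolerance 0.01), which gave depth and percentages of the shScr level. The test was limma 3.58.1 (lmFit and eBayes with trend, R 4.3.3, two-sided), fitted to the 15 libraries by group with no other term, over features that exceeded the minimum in 5 or more of them, with Benjamini-Hochberg adjustment over all features at 0.05. Since the transform is not whole reads, limma voom on the recovered reads stood in for count models as an alternative. Exact permutation tests over 5 against 5 libraries cannot go below p = 0.00794. Named genes were the 14 of largest difference in each direction among called genes whose groups did not overlap. Their higher group mean stood at least 2 units over the floor, and 11 without a name were passed over. Genes called after centring only and called or leading list members were added. CpGs were counted in sequence from the mm9 genome given. The libraries, gene lists and rules were chosen with earlier results of these data known. Steps were tested on simulated data. Alternatives covered scaling, filters, trend, weights, replicate terms, voom and each library left out. Columns of the series' other samples were used only for the choice of tested features, the shared spread and the direct contrast. One called gene is not reported here.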

Additional observations from a re-analysis of the deposited data

Results flagged for a closer look

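In 12 of 246 groups of 5 libraries examined, 1 library stood far from the other 4 by Dixon's criterion, which chance alone gives in about 1 group in 20. Replicate 4 had the most reads over receptor genes in both groups, with 61.49 RPM (reads scaled to the gene reads of the library) in shScr, where the median was 15.82, and 64.71 in shTet2, where it was 19.14. Pgam1, a glycolytic enzyme, had 1 low library in each group, at 12.45 in shScr (median 13.40) and at 11.64 in shTet2 (median 12.70). Hk1, a hexokinase, had a low shScr library at 7.71 (median 9.45). Tet3 had a high shTet2 library at 8.12 (median 6.82). In shScr, Hhex had a low value of 5.67 (median 6.09), Rnf2 a low value of 12.26 (median 12.53) and Mov10l1 a high value of 9.34 (median 8.76). Among repeat classes, U8 had a high shTet2 library at 7.73 (median 6.56), (GCTG)n a high shScr library at 7.30 (median 6.80) and ETnERV-int a high shScr library at 15.22 (median 14.89).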

How the results depend on the processing

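The count of 76 genes was 39 after centring, 45 after quantile normalisation, 283 with array weights, 840 with the replicate number as a block and 266 with the replicate set as a term. It lay between 10 and 78 with 1 library left out. By alternatives chosen after seeing the data it was 24 without both replicate 4 libraries, 0 within replicates 1 and 2 and 1 within replicates 3 to 5. The centred count of 39 lay between 15 and 65 with 1 library left out, and was 855 with the block, 168 with the set term, 178 within replicates 1 and 2 and 1 within replicates 3 to 5. The difference in Tet2 kept its direction throughout and missed the threshold only within replicates 1 and 2 (−1.975). The causes were not tested. Voom gave 57 genes, the fit of 10 libraries 74 and no filter 66. Of the higher share of calls, 43 of 76 became 16 of 45 after quantile normalisation. Repeat classes called stayed at 0 in the alternatives run, with 15 at an unadjusted p under 0.05 as deposited. No named gene called as deposited changed sign in the alternatives run, whereas some that were not called did, such as 4.5SRNA (−0.35 within replicates 1 and 2), L1Md_T (+0.05 within replicates 3 to 5) and Col4a2 (+0.02 there). Replicate numbers did not pair the libraries by the rule used, since the deviations of same-numbered shTet2 and shScr libraries correlated at 0.569, 0.400, 0.008, 0.769 and 0.572, with replicate 3 near 0. Of the 5 shTet2 libraries 3 correlated best with their own number. Depth limits genes near the floor, where a few reads set the value.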
